A study of Mus musculus with 16 samples.

Results

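The H2 window is the 5 Mb of mouse chromosome 17 from 33000000 to 38000000 (mm8) that holds the H2 complex, the major histocompatibility complex of the mouse. Its members were all 817 non-control probes of the array placed there by their printed coordinates, of 235402 such probes in all and beside 8094 on the rest of chromosome 17. DNA copy number was profiled by comparative genomic hybridisation in 16 cultures of mouse tumour cell lines that grow in mice of their own strain, each on 1 array. Line DNA was labelled with Cy5 and a commercial mouse genomic DNA (Merck), whose strain the labels do not give, with Cy3 as the common reference on every array. Each value below is therefore a log2 ratio of line over reference at a probe of mostly 60 bases, with 0 set at the autosomal median of that array.

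The strain label Balb/C covered 3 lines: CT26 (colon), 4T1 (breast) and Renca (renal). DBA/2 covered 1 line, P815 (mast cells). C57BI6, spelled as in the labels, covered 12 arrays: MC38 (colorectal), LL2 (lung), Hepa1-6 (liver), PAN02 (pancreas), EL4 (blood), ID8 (ovary), 2 prostate lines (TRAMPC1 and TRAMPC2, labelled male, the only ones) and 4 melanoma arrays (B16F0 from ECAC and ATCC, B16F10 from NCI and ATCC). The B16 arrays and the TRAMPC arrays were each averaged into 1 family, leaving 8 C57BI6 families, 3 Balb/C lines and P815. The labels give no treatment for any culture. B16F0 and B16F10 were each arrayed from 2 suppliers and no other line has a second array, so a strain's spread is the spread between tumours.

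The H2 complex encodes the proteins by which cells show peptides to T cells. Class I heavy chains such as H2-K1 and H2-D1 present peptides made inside the cell to CD8+ T cells, and class II chains such as H2-Aa, H2-Ab1 and H2-Eb1 present peptides taken up from outside to CD4+ T cells. Tap1, Tap2, Tapbp, Psmb8 and Psmb9 cut, carry and load the class I peptides, and the class III stretch beside class II holds complement genes (C2, C4a, C4b, Cfb) and cytokine genes (Tnf, Lta, Ltb). Inbred strains carry fixed H2 haplotypes that differ in sequence and in the number of class I genes. Balb/C and DBA/2 mice both carry haplotype d, whereas C57BL/6 mice, the strain of the mouse reference assembly, carry haplotype b. In the RefSeq gene table (GRCm38.p6), 50 genes with H2 symbols lie on chromosome 17, with 16 of 17 listed class I heavy chains, all 10 class II chains, all 5 processing genes and all 12 class III genes. Their order there runs from Tapbp and H2-K1 through class II and the processing genes Psmb9, Tap1, Psmb8 and Tap2 to class III, and then through H2-D1 and the H2-Q, H2-T and H2-M class I families. The array files use mm8 coordinates and that table another build, so no probe is assigned to a gene below and positions are given as mm8 coordinates only. A low ratio can come from fewer copies or from DNA that pairs less well with a probe, and on these arrays these cannot be told apart.

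Over 4723 autosomal bins of 0.5 Mb outside the window, the profiles of Hepa1-6 and PAN02 correlated at r = 0.97, above every pair of arrays within the B16 or TRAMPC families (0.75 to 0.92) and every other pair across families (at most 0.59 over 112 pairs). These 2 lines carry different tissue labels, and results that rest on both are given with them counted as 1 family where that changes a call. File headers placed 6 arrays in a first scan batch and 10 in a second. The first batch held the 3 Balb/C arrays and 3 C57BI6 arrays (B16F10 NCI, Hepa1-6 and ID8), so strain and batch overlap in part. Median reference signal in the window was 971 to 1041 on the 16 arrays against 995 to 1069 on the rest of chromosome 17, and 12 of the 817 probes were not well above background in a channel on some array. The number of lines limits the precision of every comparison.

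The window as a whole lay slightly above the rest of its chromosome on every array. Among the Balb/C lines, its median log2 ratio was 0.20 in CT26 (0.16 on the rest of chromosome 17), 0.21 in 4T1 (0.15) and 0.20 in Renca (0.17). P815 had the lowest window median of the 16 arrays, 0.025 against -0.051 on the rest of the chromosome. Among the C57BI6 lines, the window median was 0.25 in MC38, 0.29 in LL2, 0.32 in Hepa1-6, 0.32 in PAN02, 0.18 in EL4 and 0.25 in ID8. It was 0.18 in TRAMPC1 and 0.29 in TRAMPC2, and the 4 melanoma arrays were lower, at 0.079 in B16F0 ECAC, 0.11 in B16F0 ATCC, 0.13 in B16F10 NCI and 0.054 in B16F10 ATCC. The level of the window mostly followed the level of the chromosome, since the window minus the rest of chromosome 17 ranged only from 0.013 to 0.13 over the 16 arrays.

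Over the 12 families that difference averaged 0.067 ± 0.032 (SD, n = 12) and was positive in 12 of 12, from 0.032 to 0.13. A two-sided exact sign-flip permutation test gave p = 0.00049, the smallest it can give with 12 families. The mean was 0.11 with the window narrowed by 1 Mb on each side and 0.044 with normexp background correction, both with the same exact permutation p. With Hepa1-6 and PAN02 as 1 family it was 0.069 (exact permutation p = 0.00098, again the smallest possible). All families share the reference DNA, so a difference of the line cannot be told apart from one of the reference here. No other window of the autosomes is set beside this one. The EL4 (0.13), ID8 (0.11) and TRAMPC2 (0.11) arrays had the largest excess and B16F0 ECAC (0.013) and B16F10 ATCC (0.015) the smallest.

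**Figure D1:**
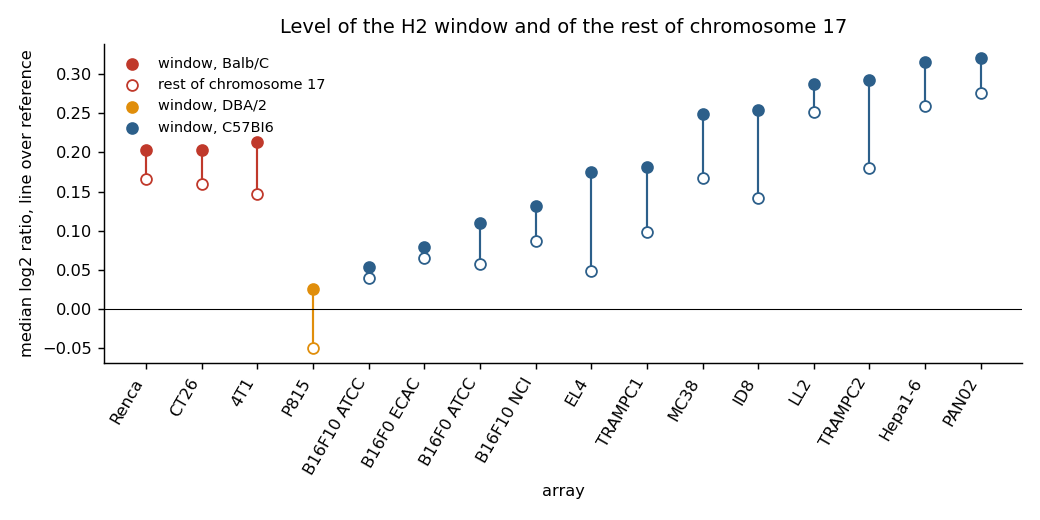
Median log2 ratio, line over reference, of the H2 window (filled points) and of the rest of chromosome 17 (open points) on each of the 16 arrays, coloured by strain label. The window point lies above the chromosome point on all 16 arrays, and P815 is the only array with the rest of its chromosome below 0.

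By strain, the median level of the whole window gave no difference that passed a test. The window minus the rest of chromosome 17 was 0.049 ± 0.015 (SD, n = 3) in Balb/C and 0.073 ± 0.037 (SD, n = 8) in the C57BI6 families. The difference of -0.024 gave p = 0.35 in a two-sided exact permutation test over 165 splits, whose smallest p is 0.012. With means over probes in place of medians the difference was -0.062 and the exact permutation p was 0.024, and it was nearer 0, at -0.0057 with normexp and -0.0063 with the window narrowed by 1 Mb on each side. The window level itself averaged 0.21 ± 0.0058 over the Balb/C lines (SD, n = 3) and 0.24 ± 0.076 over the C57BI6 families (SD, n = 8), a difference of -0.035 with an exact permutation p of 0.46. That difference was -0.056 without the B16 family (exact permutation p = 0.10), -0.086 with arrays centred on the mode (0.22), -0.080 with P815 joined to Balb/C (0.15), -0.017 in the narrowed window (0.64) and 0.030 with normexp (0.70).

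The strains differed instead at scattered probes that lay far from the level of the chromosome. Probes 1 or more log2 units from the median of the rest of chromosome 17 made up 5.39% of the window in CT26, 5.02% in 4T1 and 4.77% in Renca. In the C57BI6 families the share ran from 1.96% in MC38 to 3.67% in PAN02 and EL4. No C57BI6 family reached the lowest Balb/C line, although the B16F0 ATCC array alone, within the B16 family, had 4.77%. The means were 5.06% ± 0.31 (SD, n = 3) and 3.08% ± 0.61 (SD, n = 8), and the difference of 1.98 percentage points gave p = 0.012, the smallest the exact permutation test can give. On the rest of chromosome 17 the same share was 1.73% in Balb/C and 2.76% in C57BI6, a difference of -1.04 with an exact permutation p of 0.18.

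That excess lay on the low side. Low probes made up 2.57% of the window in CT26, 2.45% in 4T1 and 2.82% in Renca, against 0% to 1.22% in the C57BI6 families, where EL4 was the highest. The means were 2.61% ± 0.19 (SD, n = 3) and 0.34% ± 0.38 (SD, n = 8), with an exact permutation p of 0.012, again the smallest possible. High probes differed by -0.29 percentage points, at 2.45% in Balb/C and 2.74% in C57BI6 (exact permutation p = 0.45). Low and high probes were not counted apart on the rest of chromosome 17. P815, left out of these tests, had 3.06% low and 4.16% high probes in the window, and 5.91% of its probes on the rest of the chromosome were as far. Noise between neighbouring probes was 0.22 to 0.36 in Balb/C arrays and 0.23 to 0.41 in C57BI6 arrays, ranges that overlapped. Its part in the difference was not tested. Within the first scan batch the difference in far probes was 2.37 percentage points with an exact permutation p of 0.10, the smallest that 3 against 3 allows. It was 3.53 with normexp and 3.05 in the narrowed window, both at an exact permutation p of 0.012. With Hepa1-6 and PAN02 as 1 family it was 1.99 (exact permutation p = 0.017, the smallest possible there). At a distance of 0.5 in place of 1 it was -1.49 (exact permutation p = 0.61).

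Probe by probe, 62 of 816 window probes with a value in every family differed between Balb/C and the C57BI6 families, which is 7.6% of the window, at a limma p adjusted by Benjamini-Hochberg over 220255 autosomal probes under 0.05. The background was 2.34% of all autosomal probes and 3.52% of those on the rest of chromosome 17 (284 of 8078). Of the 62, 46 were lower in Balb/C (5.64% of window probes, against 1.98% over all autosomes) and 16 were higher (1.96%, against 0.36%). On the rest of chromosome 17 the shares were 2.34% lower and 1.18% higher, so the window was nearer its own chromosome than all autosomes in higher probes. Ranked among 488 autosomal windows of 5 Mb, the H2 window had the 23rd highest share, and the median window had 1.51%. With scan batch as a block, 30 window probes were called (26 lower and 4 higher), 3.68% of the window against 1.08% of all autosomal probes, and all 30 were among the 62. Within the first batch alone 41 were called, 5.02% of the window against 1.44% of all autosomal probes, and these were among the 62 as well. Normexp background correction left 29, also all among the 62, against 0.586% of all autosomal probes.

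The sizes were uneven between directions. Over the called probes the median size of the difference was 0.99 on the log2 scale and the largest 5.48. At least 2-fold differences were reached by 26 lower and 4 higher probes, and at least 4-fold ones by 9 lower and 0 higher probes. Over all autosomes 4359 of the 5153 called probes were lower in Balb/C, so a lean to lower probes was not particular to the window. At 49 of the 62 the C57BI6 mean lay nearer the level of the rest of chromosome 17 than the Balb/C mean did (38 of the 46 lower and 11 of the 16 higher probes). At 6 called probes the strains stood on opposite sides of that level, with Balb/C at -0.5 or below and C57BI6 at 0.5 or above. These counts by size, nearness and side are for the window alone. Over all window probes the median difference was -0.017, against 0.0042 over all autosomal probes.

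**Figure D2:**
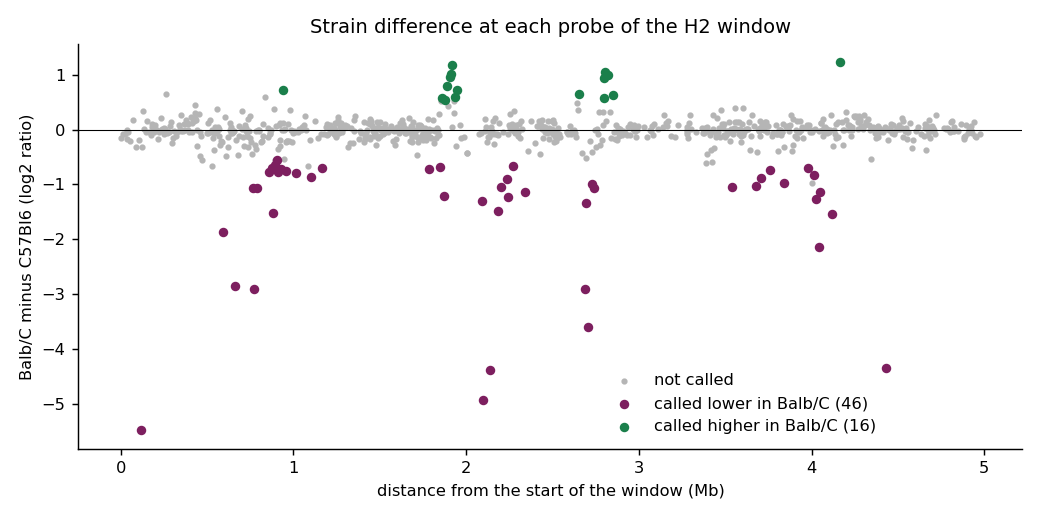
Difference between the Balb/C mean and the C57BI6 family mean (log2 ratio) at each tested probe of the H2 window against the distance from the start of the window in Mb, with called probes coloured by direction. The 46 lower probes reach -5.48 and lie along most of the window, and the 16 higher probes lie mostly in 2 clusters near 1.91 and 2.80 Mb.

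Called probes were not spread evenly along the window. In steps of 0.5 Mb from its start, the 10 bins held 1, 14, 3, 11, 9, 11, 0, 6, 7 and 0 of them. Bins 2, 4, 5 and 6, picked after their counts were seen, held 45 of the 62, or 12.3% of their 367 probes, against 3.79% of the 449 probes in the other 6 bins. Bin 2, chr17:33500001-34000000, had 13 lower and 1 higher. Of the 16 higher probes, 14 lay in bin 4 (chr17:34500001-35000000, 8 higher and 3 lower) and bin 6 (chr17:35500001-36000000, 6 higher and 5 lower). Bin 5 between them had 9 lower and no higher ones.

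In bin 4 the 8 higher probes lay between chr17:34861699-34861758 and chr17:34949020-34949079, among them a lower one at chr17:34870276-34870335 (-1.21). Their differences ran from 0.53 to 1.18 and were largest at chr17:34916112-34916171. There Balb/C stood at 0.58 ± 0.10 (SD, n = 3), C57BI6 at -0.61 ± 0.14 (SD, n = 8) and P815 at 0.49. In bin 6 the 6 higher probes differed by 0.57 to 1.05, and 5 lay between chr17:35797649-35797699 and chr17:35852900-35852959. The 9 lower probes of bin 5 differed by -0.66 at chr17:35271731-35271790 to -4.92 at chr17:35098970-35099029. In bin 2 the 13 lower probes differed by -0.56 at chr17:33905459-33905518 to -2.90 at chr17:33772119-33772178. The C57BI6 mean was above the level of the chromosome at all but 1 of these 13, the exception being chr17:33928694-33928753 at -0.16.

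Neighbouring called probes formed 8 runs of 2 or 3 probes with 1 direction, 5 lower and 3 higher in Balb/C, holding 18 of the 62. Values of runs and single probes are log2 ratios minus that array's median over the rest of chromosome 17, while fitted differences are on the autosome-centred ratios. Every adjusted p below is from limma with Benjamini-Hochberg adjustment over all autosomal probes, and for a run it is the largest of its probes.

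The strongest run, chr17:35092351-35099029 (2 probes), was far below the level of the chromosome in Balb/C. It stood at -2.91 in CT26, -2.64 in 4T1 and -3.43 in Renca, against -0.10 in LL2, 0.023 in ID8, 0.079 in MC38, 0.11 in B16, 0.12 in Hepa1-6, 0.14 in TRAMPC, 0.16 in PAN02 and 0.28 in EL4. The groups did not overlap, at probes picked for their difference, and P815, at -3.24, sat with the Balb/C lines. In this run 1 probe was not well above background on any Balb/C array or in P815. The run therefore has only a bound in Balb/C and was at least 5.32-fold lower there (adjusted p = 1.04e-05).

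A second low run at chr17:35688180-35691693 (2 probes) read -2.78 in CT26, -2.06 in 4T1 and -2.32 in Renca. The 8 C57BI6 families lay between -0.42 and -0.16, with a mean of -0.28 ± 0.096 (SD, n = 8), and P815 was at -2.40. The fitted difference was -2.12, a 4.34-fold lower ratio with an adjusted p of 0.00088, and 1 probe was not well above background on 1 of the Balb/C arrays.

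Near the start of the window, the run chr17:33764729-33772178 (2 probes) was below the chromosome in Balb/C and above it in C57BI6. Its values were -1.35 in CT26, -1.47 in 4T1 and -1.49 in Renca, and from 0.23 in PAN02 to 1.00 in LL2 over the C57BI6 families (mean 0.54 ± 0.23, SD, n = 8). The fitted difference of -1.98 (3.95-fold lower) had an adjusted p of 0.00045. P815, at -0.91, was also below the chromosome but less so than any Balb/C line.

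The run chr17:37043907-37046802 (2 probes) read -1.10 in CT26, -1.29 in 4T1 and -1.45 in Renca, with P815 at -1.40. In the C57BI6 families it ran from 0.22 in B16 to 0.53 in PAN02, and the difference of -1.64 (3.12-fold lower) had an adjusted p of 4.07e-05. The remaining low run, chr17:33876597-33882002 (2 probes), was high in C57BI6 instead of low in Balb/C. There the Balb/C lines were at 0.39, 0.35 and 0.16 (CT26, 4T1, Renca) and the C57BI6 families between 0.95 in Hepa1-6 and 2.16 in LL2, a 2.16-fold difference with an adjusted p of 0.042. P815 was at -0.061, below all of them. On 1 array the reference was not well above background at a probe of this run, chr17:33881943-33882002.

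Of the 3 runs that were higher in Balb/C, chr17:34907088-34916171 (3 probes) was the clearest. It read 1.10 in CT26, 1.14 in 4T1, 0.99 in Renca and 1.16 in P815, while every C57BI6 family lay within -0.045 and 0.074 of the chromosome. The difference of 1.05 is a 2.07-fold higher ratio (adjusted p = 0.0011), and C57BI6 stood at the chromosome's level (mean 0.016 ± 0.044, SD, n = 8).

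Just before it lay the run chr17:34877638-34889477 (2 probes), which read 0.57 in CT26, 0.57 in 4T1, 0.55 in Renca and 0.68 in P815. The C57BI6 families lay between -0.19 and -0.026, and the 1.58-fold higher ratio had an adjusted p of 0.044. Further on, chr17:35797649-35806864 (3 probes) read 0.34 in CT26, 0.34 in 4T1 and 0.28 in Renca, with the C57BI6 families between -0.73 in LL2 and -0.35 in PAN02. Its ratio was 1.81-fold higher (adjusted p = 0.047), and here P815, at 0.066, lay between the strains. The calls of these last 2 runs were lost when arrays were centred on the mode (adjusted p = 0.093 and 0.11). With normexp background correction the 2 higher runs in bin 4 kept their calls and the other 6 runs did not (adjusted p from 0.095 to 0.90).

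**Figure D3:**
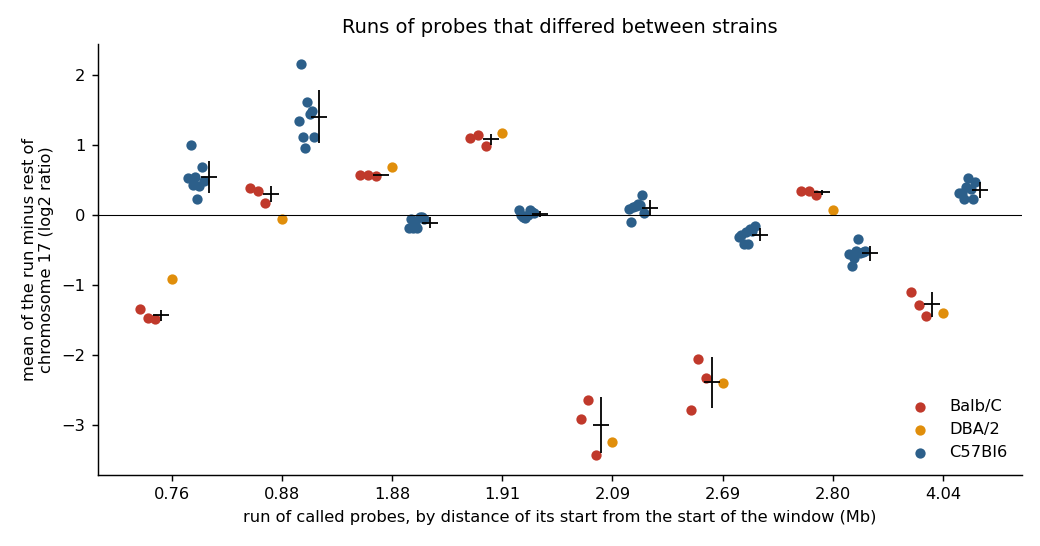
Mean log2 ratio of each of the 8 runs of called probes, minus the rest of chromosome 17, for the 3 Balb/C lines, P815 (DBA/2) and the 8 C57BI6 families, with runs ordered by their start in Mb from the start of the window. Black crosses give the mean and SD of a strain. In all 8 runs the Balb/C points lie apart from the C57BI6 points, at probes picked for that difference.

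Of the 4 largest single differences, chosen after their values were seen, 3 were at probes not well above background on any Balb/C array. At chr17:33116816-33116875 the ratio was -6.41 in CT26, -5.99 in 4T1 and -5.52 in Renca, against -0.66 to -0.39 in the C57BI6 families, and P815 was at -5.37. It was not well above background on all 3 Balb/C arrays and so was at least 15.8-fold lower (adjusted p = 1.84e-14). The probe at chr17:37433998-37434057 read -4.77, -4.42 and -4.71 in the same order, against -0.53 to -0.11 in C57BI6, and was at least 14.9-fold lower, with P815 at -4.75. One probe of the strongest run, chr17:35098970-35099029, was at least 11.5-fold lower. These were the only 3 called probes not well above background on all 3 Balb/C arrays, and none was so on any C57BI6 array. P815 was not well above background at any of these 3 either, so its ratios there are not measured sizes.

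The other of the 4, and the third largest, was measured on most Balb/C arrays. At chr17:35135746-35135801 Balb/C was at -3.62 ± 0.35 (SD, n = 3) and C57BI6 at 0.76 ± 0.15 (SD, n = 8), a 20.9-fold lower ratio in which 1 Balb/C array was not well above background. P815 was not well above background at this probe either. At chr17:35704399-35704458 the values were -2.86 ± 0.091 (SD, n = 3) and 0.73 ± 0.17 (SD, n = 8), 12.1-fold lower with no array at background. At chr17:33659672-33659731 the strains stood on opposite sides of the chromosome's level, Balb/C at -0.96 ± 0.16 (SD, n = 3) and C57BI6 at 1.88 ± 0.27 (SD, n = 8), with P815 at -0.97. The largest higher difference was 1.22 at chr17:37167444-37167503, where both strains were above the chromosome's level, Balb/C at 2.49 ± 0.51 (SD, n = 3) and C57BI6 at 1.26 ± 0.34 (SD, n = 8). For scale, the SD over the 4 melanoma arrays was 0.15 at the median window probe, and at the called probes the median SD was 0.16 over the Balb/C lines and 0.15 over the C57BI6 families. The fit that picked the called probes favours a small SD, so the SDs at those probes may be low.

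P815, the DBA/2 line that took no part in choosing these probes, mostly stood with Balb/C. At 57 of the 62 called probes (91.9%) its ratio was nearer the Balb/C mean than the C57BI6 mean, with a median distance of 0.18 to the first and 0.94 to the second. This held for 43 of the 46 lower and 14 of the 16 higher probes. On the rest of chromosome 17 it held for 235 of 284 called probes (82.7%), and on the autosomes outside the window for 2980 of 5090 (58.5%). Among 72 autosomal windows of 5 Mb with at least 20 called probes the median share was 68.2%, and 14 had a share as high as this or higher, so the H2 window was in the upper part of that range without being alone there. P815 was scanned in the second batch, apart from the Balb/C lines. It was not well above background at some of the largest single differences named above.

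The 5 exceptions, where P815 was nearer C57BI6, were at 33790138, 33912112, 34861699, 35798177 and 37013574. At chr17:33790138-33790197, for example, Balb/C was at 0.13, C57BI6 at 1.18 and P815 at 0.68. At chr17:37013574-37013633 Balb/C was at -0.75 ± 0.30 (SD, n = 3), C57BI6 at 0.063 ± 0.15 (SD, n = 8) and P815 at -0.085. At chr17:35341183-35341242, one of the lower called probes, P815 read -5.36 and was not well above background, far below Balb/C at -1.66 and C57BI6 at -0.53. With P815 joined to the Balb/C lines, 70 window probes were called, 54 lower and 16 higher, against 1.94% of all autosomal probes, and 60 of them were among the 62. With scan batch as a block as well, a setting chosen after the data were seen, 58 were called, 7.11% of the window against 1.48% of all autosomal probes, and 54 of these were among the 62.

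Averaged over 0.5 Mb, the strain differences were not detectable. None of the 10 window bins was called by limma with Benjamini-Hochberg adjustment over 4733 autosomal bins (the lowest adjusted p was 0.79, and 0 of the 10 had an unadjusted p under 0.05), against 0.127% of all bins. Bin 2 came nearest, at -0.0076 in CT26, 0.044 in 4T1 and 0.0010 in Renca against a C57BI6 mean of 0.15 ± 0.064 (SD, n = 8). Its fitted difference was -0.15 ± 0.10 (SE). A bin of 53 to 109 probes is summarised by its median, which a few far probes hardly move.

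Along the window, the arrays of all strains shared 1 profile. Over the 16 arrays, the median of each bin minus the rest of chromosome 17 was 0.12, 0.14, 0.13, 0.12, 0.15, 0.16 and 0.084 in the first 7 bins and -0.030, -0.11 and -0.19 in the last 3. The first 7 bins were above the last 3 on all 16 arrays when their medians were compared, a split chosen after the profile was seen. The highest bin was bin 6 on 8 arrays, bin 1 on 3, bin 3 on 3 and bin 4 on 2, and the lowest was bin 10 on 13 arrays and bin 9 on 3 (4T1, P815 and ID8). The highest value reached was 0.31 in bin 3 of TRAMPC2 and the lowest -0.35 in bin 10 of B16F10 NCI. Median reference signal in the bins was 834 to 1072, with 970 in bin 10 and 834 in bin 7. Its part in the profile was not tested.

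**Figure D4:**
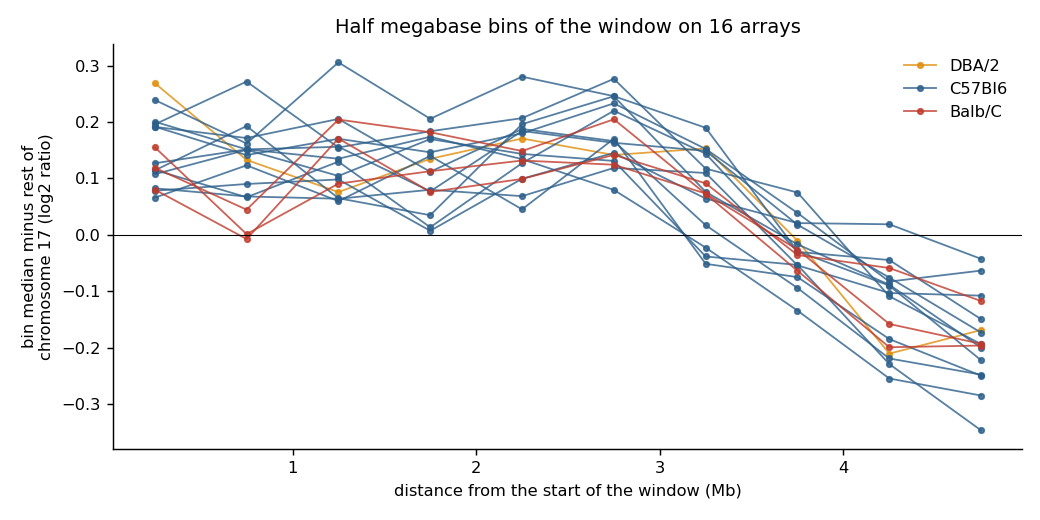
Median log2 ratio of each 0.5 Mb bin of the H2 window minus the rest of chromosome 17, on each of the 16 arrays coloured by strain label, against the distance from the start of the window in Mb. Values lie between -0.052 and 0.31 over the first 7 bins, and all 16 arrays lie below 0 in bin 10.

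An exact change point search over chromosome 17 placed a step at the same point of that profile on 10 arrays. The step down lay between 3.45 and 3.66 Mb from the start of the window in MC38, 4T1, all 4 melanoma arrays, P815, TRAMPC2, ID8 and Renca, at chr17 positions 36449156 to 36655848. It separated segments 0.085 to 0.20 above the rest of the chromosome from lower ones. The raised segments began before the window on all 10, from position 22672249 in 4T1 to 32093946 in B16F0 ECAC and B16F10 NCI. CT26, LL2, Hepa1-6, PAN02 and TRAMPC1 had no step inside the window. The arrays with a step included all 3 strain labels.

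EL4, a C57BI6 line of the blood, had the only segment lying mostly in the window that differed from the rest of its chromosome by 0.3 or more. It spanned chr17:37248219-37305472, 0.057 Mb with 11 probes, near the distal end of the window. The segment mean was -0.91 ± 0.080 (SE over probes), or -0.96 relative to the rest of chromosome 17. Its probes ran from -1.37 to -0.54 with a median of -0.97, and none was at background. The same 11 probes averaged from -0.30 in LL2 to 0.072 in Hepa1-6 on the other 15 arrays, with a median of -0.11. EL4 was the lowest of all 16 arrays at 10 of the 11 probes, and LL2 at the other.

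The flanks of 100 kb in EL4 averaged 0.024 (16 probes) before the segment and -0.26 (20 probes) after it. These lay within the range of the other arrays, -0.074 to 0.37 before and -0.31 to -0.043 after. Past the distal end, after 2 probes at 0.042 and -0.086, EL4 read -1.04 at chr17:37324246-37324305 and -1.01 at chr17:37331518-37331577, below all other families there. With normexp background correction the segment was at -0.41 against -0.32 for the lowest of the others. EL4 has 1 array, so the segment has no replicate and no test.

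**Figure D5:**
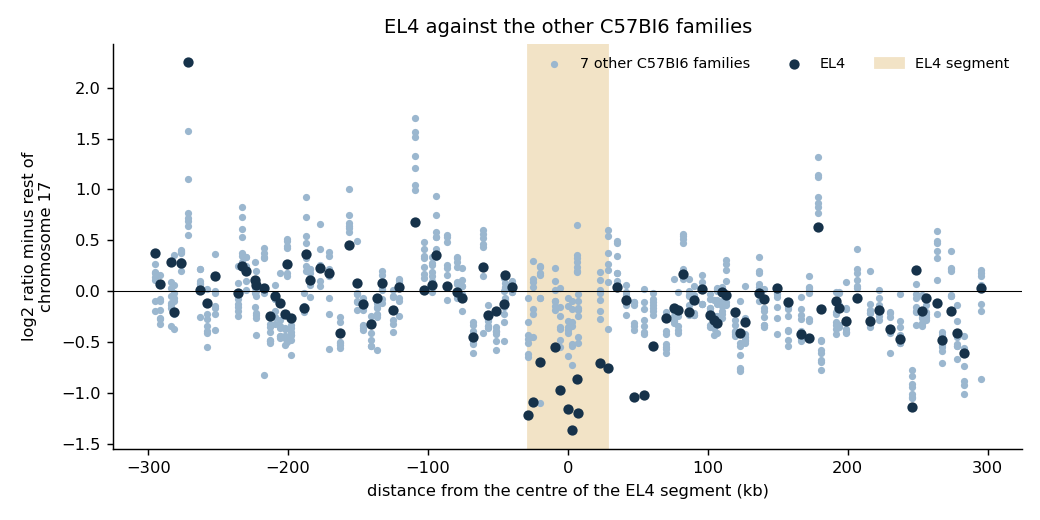
Log2 ratio minus the rest of chromosome 17 at each probe within 300 kb of the centre of the EL4 segment (shaded), for EL4 (dark points) and the 7 other C57BI6 families (light points). The 11 EL4 probes in the shaded part lie between -1.37 and -0.54, below the other families at 10 of them.

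Single probes at which 1 line stood apart from all other families were also counted. CT26, P815 and Hepa1-6 each had 1 probe that was lower by 1 log2 unit or more than on every array of the other families, and the other 13 arrays, EL4 among them, had none. These counts are for the window alone, with no share over other probes beside them. The Hepa1-6 probe, chr17:33260769-33260828, read -6.13 in Hepa1-6 and 0.51 in PAN02, and was not well above background on 1 C57BI6 array. The P815 probe, chr17:35341183-35341242, was not well above background in P815. No array had a probe that was higher than all of those by as much. Between Hepa1-6 and PAN02 the median absolute difference over window probes was 0.13. Both had window medians of 0.32, and with the pair counted as 1 family 60 window probes were called, 7.35% of the window against 2.19% of all autosomal probes, and all 60 were among the 62.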

How the data were processed

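Genomic DNA of 16 cultures was hybridised to Agilent 2-colour arrays against a common reference, 1 array each, per the labels. Per the file headers, spots were read with Agilent Feature Extraction 10.7.3.1 on mm8, and the deposited processed signals are background-subtracted, detrended intensities, scaled between dyes by a linear factor. The deposited log10 ratio matched the ratio of processed signals within 0.001 for at least 99.9% of spots. The deposited value table of the series holds log2 ratios and served as an alternative.

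The log2 of Cy5 over Cy3 processed signal was centred on each array's autosomal median, and outlier-flagged spots were dropped. Strain differences used limma 3.58.1 (R 4.3.3) over all autosomal probes, or over bins of 0.5 Mb with at least 10 probes, with Benjamini-Hochberg adjustment at 0.05. Values per family used exact permutation tests (SciPy 1.17.1). A lower bound on a fold compares the bright group with the lowest signal well above background. The change point search used a minimum of 5 probes. Named items were runs of at least 2 neighbouring called probes, called bins, extreme bins per line, and window segments 0.3 or more from the chromosome. In simulations of the strain fit on 220255 probes, 60 of 100 planted differences of 1 and 95 of 100 of 2 (log2) were recovered, with 7 false calls. The simulated noise was normal and independent between probes and families, with no scan batch, so these counts do not give the error rate of the real fit. The scan batch block used the B16 mean of its 3 second-batch arrays. Members and lists were chosen with earlier results of these data known. Probe sequences and an mm8 genome were not used here.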

Additional observations from a re-analysis of the deposited data

Results flagged for a closer look

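Among 22 values checked over the 8 C57BI6 families (window summaries, bins, runs and the segment), 1 stood apart from the others of its group by Dixon's criterion, which chance alone meets in about 1 in 20 groups. It was the EL4 segment at chr17:37248219-37305472, at -0.96 relative to the rest of chromosome 17, where the gap to the nearest family was 0.64 of the whole range, above the 95% critical value. The segment had been picked for its low value, so the criterion is a description here.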

How the results depend on the processing

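With normexp background correction, run on the median spot signal because the files hold no mean signal, the strain difference in window level turned from -0.035 to 0.030 (exact permutation p = 0.70) and 29 window probes were called in place of 62. Blocking on scan batch gave 30 called probes, the first batch by itself 41, and 49 to 63 were called when each Balb/C line or C57BI6 family was left out. The strain difference in the window minus the rest was -0.062 with means over probes (exact permutation p = 0.024), and -0.033 to -0.016 with a line or family left out. The difference in far probes was 2.37 percentage points within the first batch (exact permutation p = 0.10), -1.49 at a distance of 0.5, and 1.82 to 2.12 with a line or family left out. No called probe changed sign in any setting, and the bin count was 0 in every setting run for bins, which left out the deposited value table. Other shifts of over 1.5 times, with no change of call, stand beside the results: they came from normexp, the narrowed window, mode centring, joining P815 and leaving out B16. Of the 8 runs, 6 lost their call with normexp (adjusted limma p from 0.095 to 0.90). No paired analysis was possible because the labels number no replicates, and the numbers given here in accession order only name samples. Probes at the background in Balb/C have only a bound, and P815 ratios at the background are not measured sizes.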
